A study of Mus musculus with 6 samples.

Results

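The 36 genes described here are called enzymes, although Slc37a4 among them encodes a transporter. They serve glycolysis, the entry of fructose and glycerol into it, and the making of glucose from smaller molecules. They were chosen by what the enzymes do, but with earlier results of these data known. All 36 were found among the 54532 genes of the deposited tables and were tested. A second entry named Aldoa (ENSMUSG00000114515), at 0.699 FPKM or less in every library, was not tested. Pck1, which encodes the cytosolic phosphoenolpyruvate carboxykinase, was not counted among them and is given apart as a check. Adiponectin is a hormone made mainly by fat cells, and the paper reports low expression in kidney tubule cells as well. The study asked what this renal adiponectin does, using mice that overexpress it in the tubule and mice that lack it there. Only the overexpressing mice and their controls are described here. KSPAPN mice carried a doxycycline-switched adiponectin transgene driven through the kidney-specific cadherin (Ksp) promoter in tubule epithelia, and Control mice carried the driver without the transgene. By genotype KSPAPN was KsprtTA/TRE-adiponectin and Control was KsprtTA, which the genotype field gives as WT. Male C57BL/6 mice of both groups, of an age not given in the sources used here, ate chow with 600 mg/kg doxycycline for 4 days. Each library held RNA from the whole kidneys of 3 pooled mice, and each group had 3 libraries.

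Kidney tubule segments handle glucose differently. The proximal tubule takes up lactate, fructose and glycerol and releases glucose, while the thick ascending limb, distal tubule and collecting duct run glycolysis with other isoforms of the same enzymes. Lactate dehydrogenase subunits encoded by Ldha and Ldhb act on L-lactate in the cytosol, and Ldhd encodes the mitochondrial enzyme that acts on D-lactate.

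The Control libraries held 18205023, 17921633 and 17183358 gene counts, and the KSPAPN libraries 20871173, 18150442 and 19821381. Counts on the 36 enzymes were 1.44%, 1.40% and 1.43% of all counts for Control, and 1.45%, 1.23% and 1.32% for KSPAPN. Their summed level was 4739.9 ± 53.8 FPKM (fragments per kilobase, scaled to depth) in Control and 4257 ± 126 FPKM in KSPAPN (mean ± SD, n = 3 libraries per group, as for every mean given here), and the groups did not overlap. KSPAPN library 1 stood apart from the others of its group. The chi-square of its gene counts per degree of freedom was 32.3 against KSPAPN library 2 and 24.1 against KSPAPN library 3, while pairs of other libraries within a group were between 10.1 and 16.4. Without it, edgeR still called Ldhd, Ldha and Gpd1 lower. In bulk kidney RNA, fewer cells of a kind and less RNA per cell cannot be told apart. As a check, Adipoq stood at 0.0781, 0 and 0.0824 FPKM in Control and at 766, 693 and 937 FPKM in KSPAPN, with an edgeR Benjamini-Hochberg adjusted p of 2.97e-09. A two-sided exact permutation test of its level gave p = 0.1, the smallest that 20 arrangements of the libraries allow. Pck1 was at 853, 931 and 1366 FPKM in Control and at 2256, 1818 and 2137 FPKM in KSPAPN, with all 3 KSPAPN libraries above all 3 Control libraries. Its edgeR log2 fold change was 0.99 (SE 0.183, adjusted p 0.0248), and the adjusted p was 0.123 without Control library 1, 0.0787 without Control library 2 and 0.0972 without KSPAPN library 3. By limma, Pck1 was not past the threshold (adjusted p 0.129 with 1 and 0.119 with 0.1 added to FPKM), while by DESeq2 it was (adjusted p 6.37e-08), and its adjusted p over all alternatives that kept every library ran from 2.16e-17 to 0.129.

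By edgeR, with p adjusted by Benjamini-Hochberg over 16017 genes, 0 of the 36 enzymes were higher in KSPAPN and 3 were lower, Ldhd, Ldha and Gpd1. That is 0% and 8.33% of the enzymes, beside 0.393% higher and 2.25% lower among all genes tested (63 and 361 genes, or 2.65% in either direction). At an unadjusted p under 0.05, edgeR gave 4 enzymes higher (11.1%; Eno2, Aldoc, Pcx and Pfkm) and 5 lower (13.9%; Ldhd, Ldha, Gpd1, Pgk1 and Pgam1), beside 7.52% and 11.2% of all genes. DESeq2 called 0 higher and 4 lower, adding Pgk1, beside 1.29% and 5.31% of all genes with an adjusted p there. Limma on log2 FPKM called 0 in either direction. Of 20769 genes limma called 2 higher and 6 lower with 1 added to FPKM, and 3 and 9 with 0.1 added. A list with 0 genes called by limma, here or below, is therefore near the share over all genes. The KSPAPN libraries lay wholly above Control for 3 enzymes (Pfkm, Eno2 and Pcx) and wholly below for 8 (Tpi1, Gapdh, Pgk1, Pgam1, Ldha, Ldhd, Khk and Gpd1), beside 10.8% and 13.5% of all genes. Of the 36 fold changes, 18 were above 0 and 18 below, with a median of 0.00 on the log2 scale beside 0.01 for all genes. Scaled by total counts, 15 of the enzymes were below 0 (median 0.07, beside 0.08 for all genes), and with the trend on GC content and length removed 12 were below 0 (median 0.08, beside 0.04 for all genes). Without Control libraries 1, 2 and 3 in turn, 21, 21 and 20 enzymes were below 0 (medians -0.05, -0.04 and -0.03), and without KSPAPN libraries 1, 2 and 3, 20, 17 and 20 (medians -0.03, 0.01 and -0.03). Over all genes, the split of 63 higher and 361 lower became 71 and 195 by total counts and 100 and 303 with the GC and length trend removed. It was 5 and 34 without Control library 1, 9 and 116 without Control library 2, 39 and 271 without Control library 3, 162 and 571 without KSPAPN library 1, 33 and 243 without KSPAPN library 2, and 5 and 60 without KSPAPN library 3. The count of 3 lower enzymes was 0 without Control library 1, 1 without Control library 2, 2 without Control library 3, 2 without KSPAPN library 2 and 1 (G6pc) without KSPAPN library 3.

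**Figure D1:**
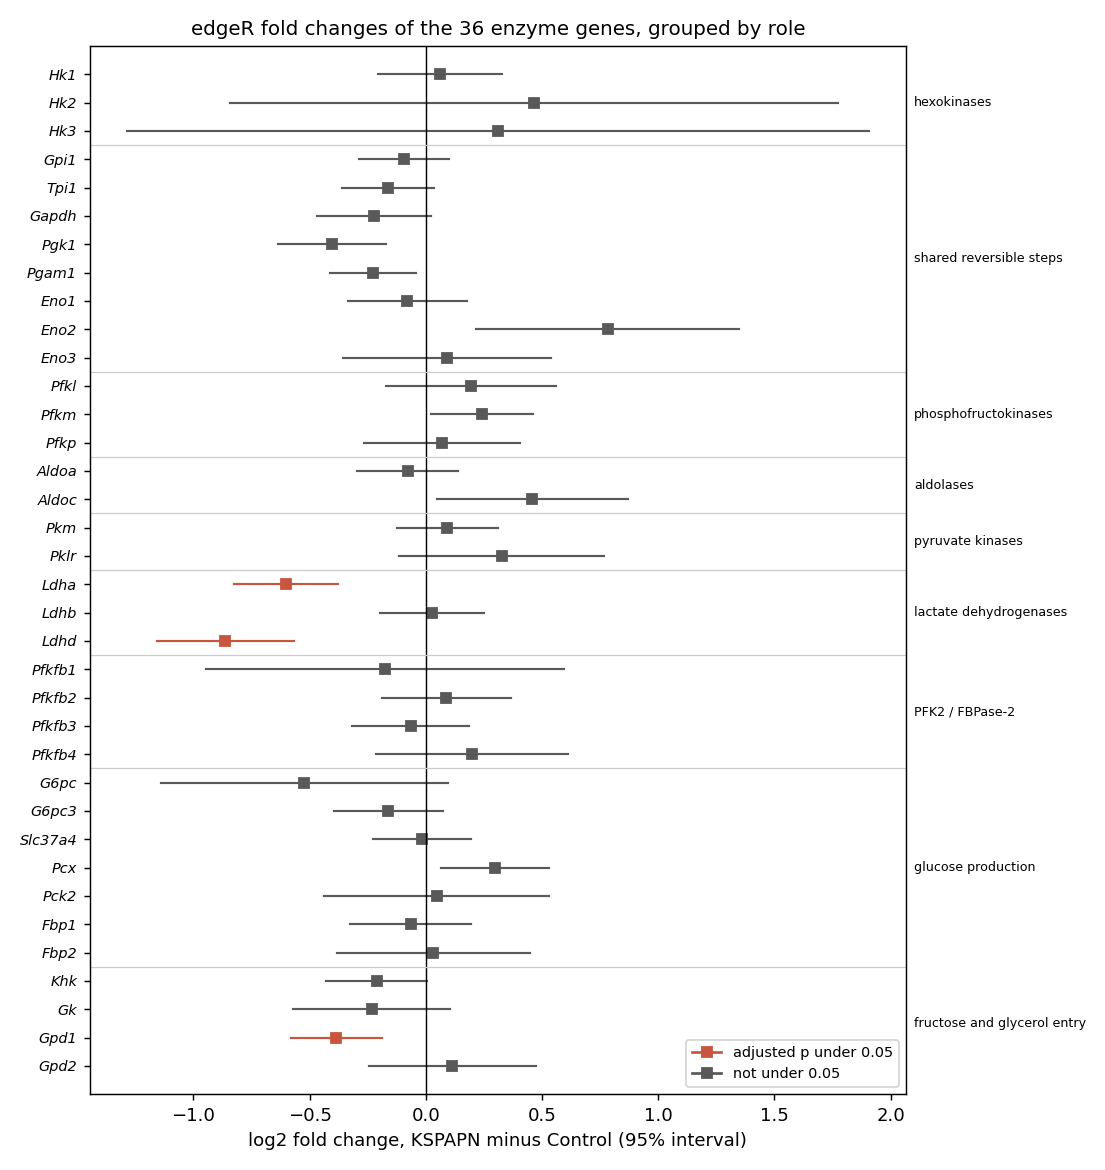
Log2 fold change, KSPAPN over Control, of each of the 36 enzymes with its 95% interval from edgeR, grouped by role. Ldhd (-0.86), Ldha (-0.60) and Gpd1 (-0.38) are those past the adjusted threshold, and 18 of the 36 lie below 0 (15 when scaled by total counts, 12 with the GC and length trend removed, and 17 to 21 when a library is left out).

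Ldhd (ENSMUSG00000031958) lies on chromosome 8 at 111623785 to 111630374 on the minus strand of GRCm38. It was at 224, 287 and 205 FPKM in Control (238 ± 42.9) and at 127, 142 and 123 FPKM in KSPAPN (131 ± 9.97). All 3 KSPAPN libraries were below all 3 Control libraries, and Control library 2 was the highest. Ldhd fell by 0.86 on the log2 scale (SE 0.133, 95% interval -1.16 to -0.57, edgeR adjusted p 0.0118), to 0.550 of the Control level. The adjusted p was 0.0529 without Control library 1 and 0.0719 without KSPAPN library 3. Of the 100-base stretches of Ldhd exons, 53.6% overlapped Znrf1, a gene on the opposite strand named here after its values were seen, and whether counting told the strands apart is not given in the sources used here. Znrf1 itself was between 3.59 and 5.18 FPKM in the 6 libraries, with a log2 fold change of -0.13 (adjusted p 0.710).

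Ldha (ENSMUSG00000063229) lies on chromosome 7 at 46841475 to 46855627 on the plus strand. Its levels were 207, 229 and 188 FPKM in Control (208 ± 20.5) and 130.2, 144 and 135 FPKM in KSPAPN (137 ± 7.14). Every KSPAPN library was below every Control library. Ldha fell by 0.60 on the log2 scale (SE 0.101, 95% interval -0.82 to -0.38, edgeR adjusted p 0.0176), to 0.660 of the Control level. The adjusted p was 0.0852 without Control library 1, 0.0676 without Control library 2 and 0.0972 without KSPAPN library 3.

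Ldhb (ENSMUSG00000030246, chromosome 6 at 142490249 to 142507957, minus strand) was the most abundant of the 36 enzymes. It was at 812, 823 and 820.2 FPKM in Control (818 ± 6.06) and at 868, 869.7 and 752 FPKM in KSPAPN (829.9 ± 67.5). The groups overlapped, since KSPAPN library 3 was below and the other KSPAPN libraries above all Control libraries. Its log2 fold change of 0.03 (SE 0.101, 95% interval -0.20 to 0.25) was not past the edgeR test, with an adjusted p of 0.919. Ldha made up 20.2 ± 1.55% of the summed FPKM of Ldha and Ldhb in Control and 14.2 ± 1.09% in KSPAPN, with no overlap between groups. The ratio of Ldha to Ldhb was 0.255, 0.278 and 0.229 in Control and 0.150, 0.166 and 0.180 in KSPAPN. Whether the fold changes of Ldha and Ldhb differ from each other was not tested.

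**Figure D2:**
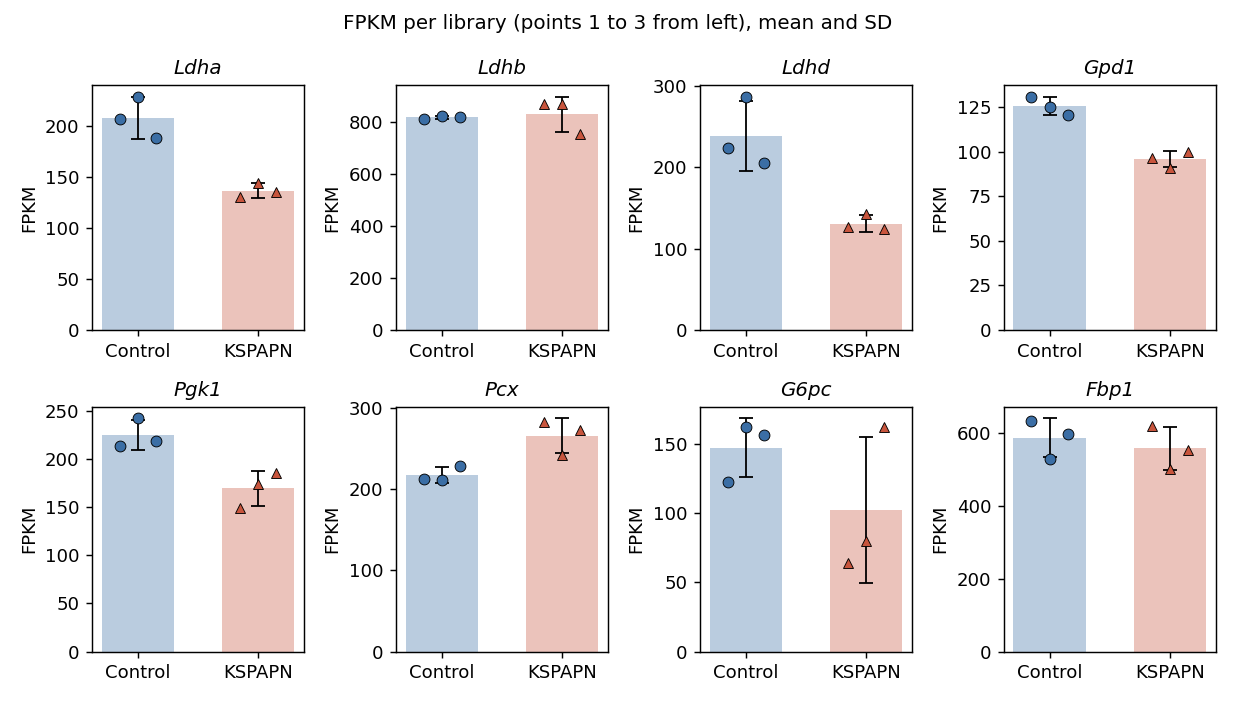
FPKM per library (points) with group mean and SD (bars) for main enzymes in Control and KSPAPN. Ldhd, Ldha and Gpd1 show no overlap between groups, while Ldhb does.

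The promoters of Ldha and Ldhd are shown because both genes were lower, and that of Ldhb as the isoform that was not called. Each holds 300 bases, from 250 before to 50 after the start, from GRCm38.p6 (RefSeq), on the strand of the gene. Capitals mark matches on either strand to ACGTG (the hypoxia response core), CACGTG (the E-box, which overlaps ACGTG), TGACGTCA (the cAMP response element) and TTGCNNAA (C/EBP). The Ldha promoter, the first of the 2 listed, is chr7:46845554-46845853 on the plus strand. Ldhd is chr8:111630287-111630586 and Ldhb chr6:142507908-142508207, both on the minus strand. The Ldha sequence holds 4 capital stretches, the Ldhd sequence 1 and the Ldhb sequence 0.
Ldha: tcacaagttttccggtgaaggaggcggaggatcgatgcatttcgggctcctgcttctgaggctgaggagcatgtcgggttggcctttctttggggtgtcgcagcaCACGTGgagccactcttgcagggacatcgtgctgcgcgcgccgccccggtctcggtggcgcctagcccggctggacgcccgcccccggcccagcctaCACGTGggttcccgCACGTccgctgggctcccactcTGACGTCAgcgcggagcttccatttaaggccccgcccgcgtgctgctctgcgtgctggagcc
Ldhd: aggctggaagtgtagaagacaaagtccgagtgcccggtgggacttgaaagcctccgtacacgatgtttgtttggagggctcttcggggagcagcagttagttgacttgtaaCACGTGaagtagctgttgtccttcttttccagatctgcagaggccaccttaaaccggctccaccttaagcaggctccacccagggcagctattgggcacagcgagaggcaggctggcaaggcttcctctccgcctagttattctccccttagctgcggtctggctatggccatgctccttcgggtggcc
Ldhb: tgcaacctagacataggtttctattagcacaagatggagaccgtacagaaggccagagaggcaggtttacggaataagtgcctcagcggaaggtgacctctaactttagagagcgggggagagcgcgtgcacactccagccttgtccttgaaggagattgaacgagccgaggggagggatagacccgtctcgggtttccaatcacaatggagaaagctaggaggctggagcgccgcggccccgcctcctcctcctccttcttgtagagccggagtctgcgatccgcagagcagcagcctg

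Over 57 promoters matched to 35 of the 36 enzymes, 24 (42.1%) held ACGTG, beside 19.6% of all 32851 promoters, and these belonged to 20 of the enzymes, Pgk1, Gapdh, Aldoa, Hk1 and Pkm among them. CACGTG, which overlaps ACGTG, was in 10 (17.5%, beside 7.15%), with Khk and Pcx among its genes. TGACGTCA was in 1 (1.75%, beside 1.79%), that of Ldha, and TTGCNNAA in 4 (7.02%, beside 10.8%), those of Gpd2, Pfkfb1, Pfkm and Pkm. A match only describes the sequence. No promoter entry matched Gpd1.

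Among the 4 enzymes of fructose and glycerol entry, Gpd1 (ENSMUSG00000023019, chromosome 15 at 99717515 to 99725005, plus strand) was lower. This cytosolic glycerol-3-phosphate dehydrogenase was at 131, 125 and 121 FPKM in Control (126 ± 5.06) and at 96.8, 91.2 and 99.8 FPKM in KSPAPN (95.9 ± 4.34). All KSPAPN libraries were below all Control libraries. Gpd1 fell by 0.38 on the log2 scale (SE 0.0884, 95% interval -0.58 to -0.19, edgeR adjusted p 0.0497), to 0.766 of the Control level. Its adjusted p was above 0.05 in 5 of the 6 fits that left out a library, at 0.213 without Control library 1, 0.128 without Control library 2, 0.109 without Control library 3, 0.145 without KSPAPN library 2 and 0.152 without KSPAPN library 3. It was also 0.0515 with DESeq2-style size factors, 0.110 when scaled by total counts and 0.134 with the GC and length trend removed, in a range of 0.00349 to 0.134 over the 10 alternatives that kept all libraries. Khk, which encodes ketohexokinase and was the most abundant of the 4, was at 406, 449.9 and 391 FPKM in Control and at 375, 349 and 348 FPKM in KSPAPN. The Khk groups did not overlap. Its log2 fold change was -0.21 (SE 0.0978, edgeR adjusted p 0.281), and it was 0.01 with the GC and length trend removed. For Gk and Gpd2 the groups overlapped, with log2 fold changes of -0.23 and 0.11 and adjusted p of 0.447 and 0.754.

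Of the 8 enzymes of the shared reversible steps, 6 had fold changes below 0 (4 with the GC and length trend removed, where Tpi1 and Eno1 were above 0). None passed the adjusted edgeR threshold. At an unadjusted p under 0.05 Eno2 was higher (12.5%) and Pgk1 and Pgam1 were lower (25%), beside 7.52% and 11.2% of all genes. DESeq2 called 1 of the 8 lower (Pgk1), beside 5.31% of all genes, and limma 0. Their summed level was 1300.2 ± 16.2 FPKM in Control and 1116 ± 30.6 FPKM in KSPAPN, without overlap. Pgk1 was at 214, 242 and 219 FPKM in Control (225 ± 15.2) and at 149, 174 and 185 FPKM in KSPAPN (169 ± 18.4). Its groups did not overlap. The log2 fold change of Pgk1 was -0.40 (SE 0.104, 95% interval -0.63 to -0.17), with an adjusted p of 0.0745 by edgeR and 0.0103 by DESeq2. It was called lower also with library number as a block (adjusted p 0.0357) and with no filter on low counts (0.00565), in a range up to 0.171 over the alternatives that kept all libraries. Pgam1 was at 81.6, 77.1 and 73.7 FPKM in Control and at 66.1, 65.5 and 66.2 FPKM in KSPAPN, without overlap. Its log2 fold change was -0.23 (edgeR adjusted p 0.178).

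Gapdh, the most abundant enzyme of these steps, was at 532, 491 and 527 FPKM in Control and at 486, 419 and 416 FPKM in KSPAPN. All 3 KSPAPN libraries were below Control, by less than the threshold of the test (log2 fold change -0.22, SE 0.111, edgeR adjusted p 0.314). Tpi1 was also without overlap, at a log2 fold change of -0.16 (adjusted p 0.363) that was 0.0041 with the GC and length trend removed. Eno2 was at 0.814, 0.478 and 0.726 FPKM in Control and at 1.35, 1.05 and 1.06 FPKM in KSPAPN. Its KSPAPN libraries were all higher, with a log2 fold change of 0.78 (SE 0.255, 95% interval 0.22 to 1.35, edgeR adjusted p 0.136). Eno2 was 0.435% of the summed enolase level in Control and 0.791% in KSPAPN, against 96.8% and 96.0% for Eno1.

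Eno1, Gpi1 and Eno3 had log2 fold changes of -0.08, -0.10 and 0.09, and none was past the edgeR test (unadjusted p 0.502, 0.298 and 0.661). Near copies share sequence with some of these genes: of their 100-base stretches, 67.0% of Pgk1, 59.0% of Eno1, 39.7% of Pgam1 and 18.2% of Gapdh were also found in other genes. Eno1b, named after its values were seen, is a near copy of Eno1 and was at 57.3, 33.7 and 40.6 FPKM in Control and at 21.3, 25.0 and 15.8 FPKM in KSPAPN. It fell by 1.08 on the log2 scale (SE 0.202, edgeR adjusted p 0.0249), with an adjusted p of 0.0980 without Control library 1 and 0.0972 without KSPAPN library 3, and of 0.0508 by total counts. Eno1 and Eno1b together were at 882 ± 77.5 CPM (counts scaled to depth) in Control and 838 ± 131 in KSPAPN, with overlap. Gm5514, likewise chosen after its values were seen, shares sequence with Ldhb and was at 215, 2.26 and 3.35 FPKM in Control and at 2.53, 129 and 109.8 FPKM in KSPAPN. Ldhb and Gm5514 together were at 1311 ± 56.6 CPM in Control and 1402 ± 127 in KSPAPN, with overlap. How reads from Ldhb, Eno1 and their near copies were assigned was not tested.

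Hk1 made up 98.5% of the summed hexokinase level in Control and 98.2% in KSPAPN, since Hk2 and Hk3 were at 0.301 FPKM or less in every library. It was at 16.5, 13.0 and 15.8 FPKM in Control and at 17.6, 14.2 and 15.2 FPKM in KSPAPN. The Hk1 groups overlapped, with a log2 fold change of 0.06 (edgeR adjusted p 0.829). All 3 phosphofructokinase genes had fold changes above 0 in the fit of all libraries. Pfkp was at -0.0018 with the GC and length trend removed and at -0.03 and -0.04 without Control libraries 1 and 2, and Pfkl was at -0.02 without KSPAPN library 1. Pfkm, the most abundant, was at 18.6, 17.7 and 17.2 FPKM in Control (17.8 ± 0.725) and at 23.4, 20.1 and 19.5 FPKM in KSPAPN. For Pfkm the lowest KSPAPN library stood above the highest Control library. Its log2 fold change was 0.24 (SE 0.0995, 95% interval 0.02 to 0.46), with an edgeR adjusted p of 0.229, and of 0.0432 with the GC and length trend removed (range over alternatives 0.0367 to 0.321). Pfkl and Pfkp were at 0.19 and 0.07 (adjusted p 0.574 and 0.842). Of the 4 Pfkfb genes, which set the level of the phosphofructokinase activator, 2 were above and 2 below 0, and 0 passed the edgeR test, at an adjusted or an unadjusted p under 0.05, by DESeq2 or by limma. The most abundant of them, Pfkfb3, was at 3.32, 3.74 and 3.18 FPKM in Control and at 3.17, 3.46 and 3.12 FPKM in KSPAPN, with overlap and a log2 fold change of -0.07 that was 0.0045 when scaled by total counts.

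Aldoa, an aldolase gene with a higher level than Aldoc, was at 294, 294 and 287 FPKM in Control and at 299, 268 and 259 FPKM in KSPAPN. The groups overlapped, and its log2 fold change of -0.08 (edgeR adjusted p 0.726) was 0.11 with the GC and length trend removed. Aldoc was at 8.07, 5.57 and 6.17 FPKM in Control and at 11.2, 8.67 and 7.25 FPKM in KSPAPN. KSPAPN library 3 was below Control library 1, so the Aldoc groups overlapped. The log2 fold change of Aldoc was 0.46 (SE 0.185, edgeR adjusted p 0.217), and it was called higher with no filter on low counts (adjusted p 0.0334) and with the GC and length trend removed and library number as a block (0.0323), in a range up to 0.370. Pkm was at 61.5, 56.2 and 59.6 FPKM in Control and at 68.6, 58.1 and 61.4 FPKM in KSPAPN, with overlap (log2 fold change 0.09, adjusted p 0.665). Pklr was at 0.33 on the same scale (adjusted p 0.411), and Pkm was 81.8% of the summed level of Pkm and Pklr in Control and 79.2% in KSPAPN.

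None of the 7 glucose production enzymes passed the adjusted edgeR threshold, and DESeq2 and limma called 0. At an unadjusted p under 0.05 edgeR gave 1 higher (Pcx) and 0 lower, beside 7.52% and 11.2% of all genes. Some other edgeR fits called Pcx higher or G6pc lower, and their values are given with each gene. Pcx (ENSMUSG00000024892, chromosome 19 at 4510472 to 4621752, plus strand), which encodes pyruvate carboxylase, was at 213, 211 and 228 FPKM in Control (218 ± 9.37) and at 283, 242 and 273 FPKM in KSPAPN (266 ± 21.4). All 3 KSPAPN libraries were higher. Its log2 fold change was 0.30 (SE 0.105, 95% interval 0.07 to 0.53, edgeR adjusted p 0.162), and it was called higher with the GC and length trend removed and library number as a block (adjusted p 0.0330, in a range up to 0.234 over the alternatives that kept all libraries). Fbp1, the most abundant of the 7, was at 634, 529 and 599.6 FPKM in Control and at 621, 502 and 554 FPKM in KSPAPN, and the groups overlapped. The log2 fold change of Fbp1 was -0.07 (SE 0.118, adjusted p 0.811), and it was 0.01 by total counts and 0.10 with the GC and length trend removed.

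G6pc (ENSMUSG00000078650, chromosome 11 at 101367561 to 101377903, plus strand), described after its values were seen, was at 123, 162 and 156 FPKM in Control (147 ± 21.3) and at 64.1, 79.8 and 162 FPKM in KSPAPN (102 ± 52.5). KSPAPN libraries 1 and 2 were below all Control libraries, and KSPAPN library 3 was among them. The log2 fold change of G6pc was -0.52 (SE 0.279, 95% interval -1.14 to 0.09, edgeR adjusted p 0.348), and without KSPAPN library 3 it was -1.02 (adjusted p 0.0364). With no filter on low counts the adjusted p of G6pc was 7.22e-05, the lowest of its alternatives, which went up to 0.539. G6pc was 85.3 ± 2.64% of the summed level of G6pc and G6pc3 in Control and 79.9 ± 8.55% in KSPAPN. G6pc3, Slc37a4, Pck2 and Fbp2 had log2 fold changes of -0.16, -0.02, 0.05 and 0.03, of which G6pc3 was 0.04 and Slc37a4 0.12 with the GC and length trend removed.

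**Figure D3:**
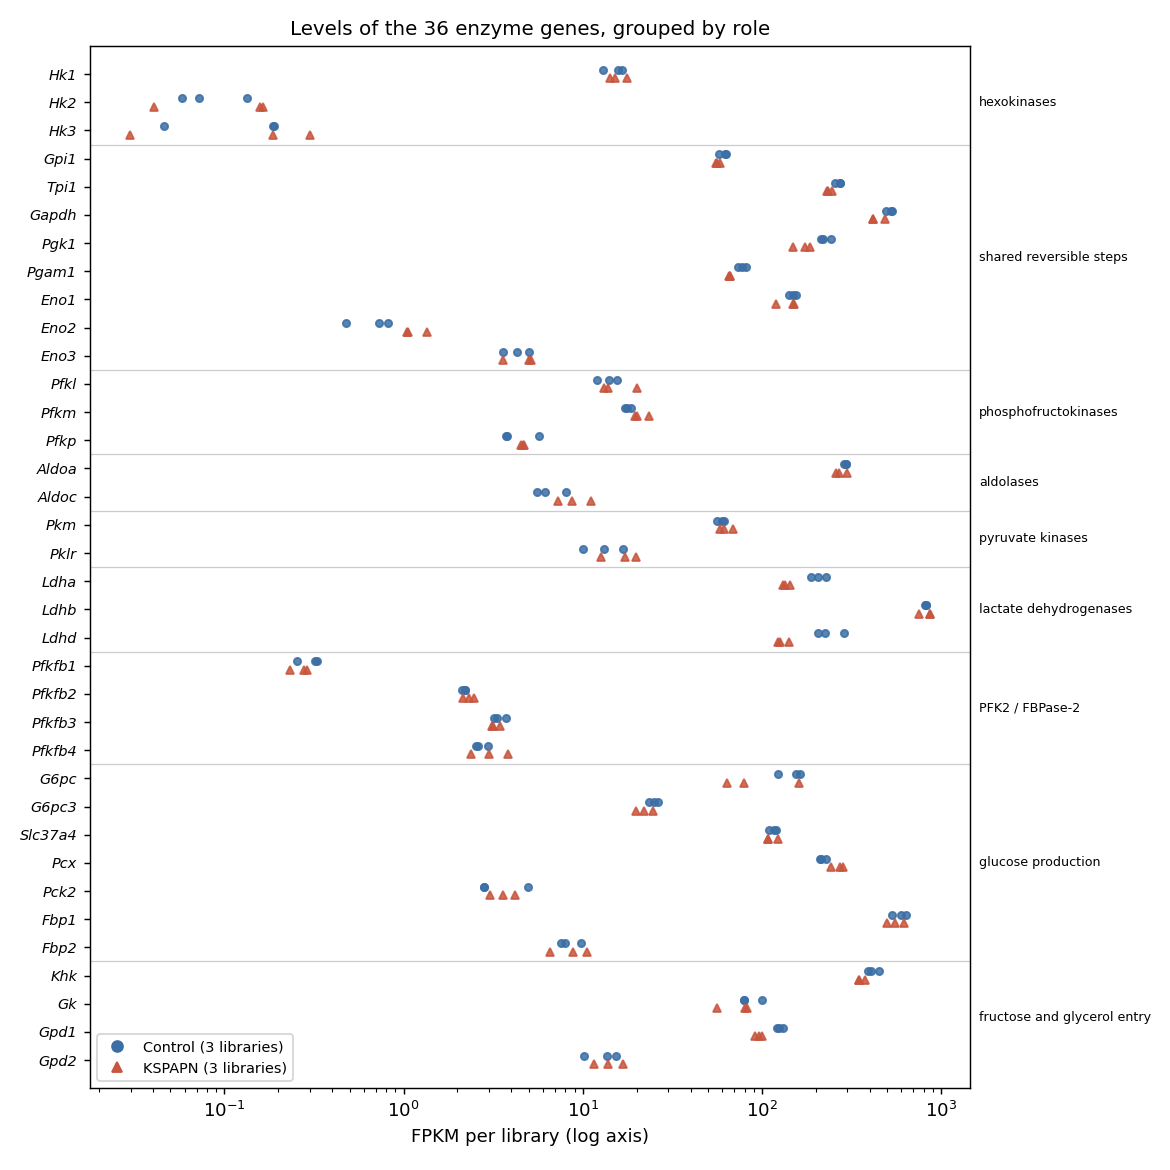
FPKM per library on a log axis for each of the 36 enzymes, grouped by role, with Control and KSPAPN libraries as separate points. Levels run from 0.0297 FPKM (Hk3 in KSPAPN library 2) to 869.7 FPKM (Ldhb in KSPAPN library 2).

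Split by segment, 6 enzymes were counted as proximal glucose-producing isoforms (G6pc, Slc37a4, Fbp1, Pcx, Pck2 and Khk) and 9 as distal glycolytic isoforms (Hk1, Hk2, Pfkl, Pfkm, Pfkp, Aldoa, Aldoc, Pkm and Ldhb). The other enzymes were in neither class. Among them were Ldha (-0.60) and those of the shared reversible steps (2 above 0 and 6 below), so the class medians depend on this choice. Of the proximal isoforms 2 were above and 4 below 0 (4 above and 2 below by total counts, 5 above and 1 below with the GC and length trend removed), with a median of -0.04 on the log2 scale, which was 0.03 by total counts and 0.08 with the GC and length trend removed. Of the distal isoforms 8 were above 0 and Aldoa was below (above 0 with the GC and length trend removed, where Pfkp was below), with a median of 0.09, or 0.16 by total counts and 0.24 with that trend removed. Over all genes the median was 0.01, or 0.08 by total counts and 0.04 with that trend removed. By edgeR 0 of the 6 and 0 of the 9 passed the adjusted threshold. At an unadjusted p under 0.05 Pcx of the proximal isoforms and Pfkm and Aldoc of the distal isoforms were higher and 0 were lower. Of all genes 7.52% were higher and 11.2% lower at that p. DESeq2 and limma called 0 in both classes. Leaving out Control libraries 1, 2 and 3 in turn, the proximal median was -0.08, -0.12 and -0.02, and leaving out KSPAPN libraries 1, 2 and 3 it was -0.10, 0.02 and -0.07. The distal median was 0.13, 0.06 and 0.20 without Control libraries 1, 2 and 3, and 0.03, 0.15 and 0.11 without KSPAPN libraries 1, 2 and 3. The 8 distal isoforms above 0 were 7 without Control library 1 or KSPAPN library 2, and 6 without Control library 2 or KSPAPN library 1. In other edgeR fits, G6pc was called lower without KSPAPN library 3 and with no filter on low counts. Aldoc was called higher with no filter on low counts, and Pfkm with the GC and length trend removed. With that trend removed and library number as a block, Pfkm, Aldoc and Pcx were called higher. A difference between the classes was not tested.

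Markers of cell types, chosen with earlier results of these data known, were listed beside the enzymes. Of 12 proximal tubule markers 11 were below 0 (10 by total counts or with the GC and length trend removed), with a median of -0.29 that was -0.15 without KSPAPN library 1, the library that stood apart. By edgeR 3 of the 12 (25%) were lower, beside 2.25% of all genes, of which 7710 of 16017 were below 0. Higher were 0 by edgeR at an adjusted or an unadjusted p under 0.05, 0 by DESeq2 and 0 by limma. Lower were 4 by DESeq2 (beside 5.31% of all genes), 4 with library number as a block, 5 with no filter on low counts and 0 by limma. Of all genes, 705 of 16017 were lower with the block and 1038 of 29418 with no filter. The 3 were Slc7a13 (log2 fold change -1.46, adjusted p 0.0259), Miox (-0.60, adjusted p 0.0268) and Slc22a6 (-0.46, adjusted p 0.0388). The adjusted p of Slc7a13 was 0.113 without Control library 1, 0.0770 without Control library 2 and 0.0972 without KSPAPN library 3. For Miox it was 0.139 and 0.0777 without Control libraries 1 and 2 and 0.0628 and 0.111 without KSPAPN libraries 2 and 3. For Slc22a6 it was 0.144, 0.138 and 0.0819 without Control libraries 1, 2 and 3, and 0.0960 and 0.137 without KSPAPN libraries 2 and 3. Slc13a3, named after its values were seen, was at 118, 152 and 124 FPKM in Control and at 90.0, 98.2 and 92.1 FPKM in KSPAPN, without overlap (log2 fold change -0.49, adjusted p 0.0503 by edgeR and 0.00165 by DESeq2). With all libraries the adjusted p was 0.0521 for Slc22a6 by total counts and 0.0792 for Miox with the GC and length trend removed. Summed proximal markers were at 28611, 36952 and 25424 FPKM in Control and at 18647, 29376 and 24944 FPKM in KSPAPN, most of it Kap, and the groups overlapped. Their part in the result was not tested.

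Of 6 markers of the thick ascending limb, a segment that runs glycolysis, 3 were above 0 (4 by total counts or with the GC and length trend removed) and Slc12a1 was higher (log2 fold change 0.52, edgeR adjusted p 0.0437). The adjusted p of Slc12a1 was 0.193, 0.143 and 0.0744 without Control libraries 1, 2 and 3, and 0.0868 and 0.0944 without KSPAPN libraries 2 and 3, and it was 0.0754 with the GC and length trend removed. Cldn10 of the same list, named after its values were seen, was at 70.9, 76.8 and 59.9 FPKM in Control and at 47.7, 57.8 and 50.7 FPKM in KSPAPN. Its groups did not overlap, with a log2 fold change of -0.41 and an adjusted p of 0.0881 by edgeR and 0.0282 by DESeq2, and it was also called lower with no filter on low counts and with library number as a block. The summed levels of the 6 were 1164, 1038 and 1085 FPKM in Control and 1289, 1025 and 1079 FPKM in KSPAPN, with Umod the most abundant. Markers of the distal convoluted tubule (4, most abundant Calb1), principal cells (5 of 6 tested, without Avpr2, most abundant Aqp2), intercalated cells (6, Atp6v1g3), podocytes (5, Podxl) and endothelium (5, Emcn) had 0 genes past the adjusted edgeR threshold. At an unadjusted p under 0.05, 5 of these were lower and 1 was higher, beside 11.2% and 7.52% of all genes. The marker that was higher was among podocytes, where all 5 were above 0 under each scaling tried (median 0.24). Without Control library 2, 3 podocyte markers were above 0 and 2 below (median 0.10), and without KSPAPN library 3, 2 were above and 3 below (median -0.01). DESeq2 called 2 intercalated cell markers lower and 0 of the other 4 lists, beside 5.31% of all genes lower, and limma called 0. The sums for the distal convoluted tubule were 183, 185 and 234 FPKM in Control and 146, 183 and 213 FPKM in KSPAPN. Those for principal cells were 476, 387 and 365 and then 639, 337 and 328 FPKM, with KSPAPN library 1 above every other library, as it was for red and white cells, and those for intercalated cells 100.1, 103 and 93.8 and then 86.5, 106 and 94.6 FPKM. Podocyte sums were 54.8, 38.7 and 58.9 and then 55.5, 54.6 and 75.9 FPKM, and endothelial sums 34.7, 28.2 and 29.3 and then 32.9, 27.7 and 34.7 FPKM.

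Other tissues also make several of these enzymes, and their markers were counted as well. Of 6 hepatocyte markers 5 were tested and Ttr, the most abundant, was lower (log2 fold change -1.17, edgeR adjusted p 0.0388), with adjusted p of 0.175 and 0.109 without Control libraries 1 and 2 and 0.148 without KSPAPN library 3, and 0.0567 by total counts. The other 4 were not called, Alb and Fgb above 0 and Apoa1 and Apoa2 below, so 2 of the 5 were above 0 and 3 below (3 above and 2 below with the GC and length trend removed). Hepatocyte sums, most of which were Ttr, were 142, 156 and 78.7 FPKM in Control and 56.3, 79.3 and 50.5 FPKM in KSPAPN, and Tat was at 0 in all Control libraries and in KSPAPN library 1. Skeletal muscle markers summed to 0.814, 0.851 and 1.04 FPKM in Control and 0.959, 1.33 and 1.41 FPKM in KSPAPN, with 1 of 6 tested (Mylpf, the most abundant) and Myh1 at 0 in every library. For red cells (5 of 5 tested, most abundant Hbb-bs) the sums were 199, 173 and 108 FPKM in Control and 263, 135 and 136 FPKM in KSPAPN. For white cells (4 of 6 tested, Lyz2) they were 13.0, 15.3 and 10.6 and then 22.5, 11.9 and 11.8 FPKM, and for adipocytes (3 of 6 tested, Fabp4) 9.41, 9.15 and 9.15 and then 10.6, 10.003 and 13.8 FPKM. Lep was at 0 except in KSPAPN library 1. By edgeR 0 of these muscle, red cell, white cell and adipocyte markers passed the adjusted threshold, and Fabp4 was higher at an unadjusted p of 0.0291. DESeq2 and limma called 0 of them, and limma did not call Ttr, Slc12a1 or the proximal tubule markers.

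**Figure D4:**
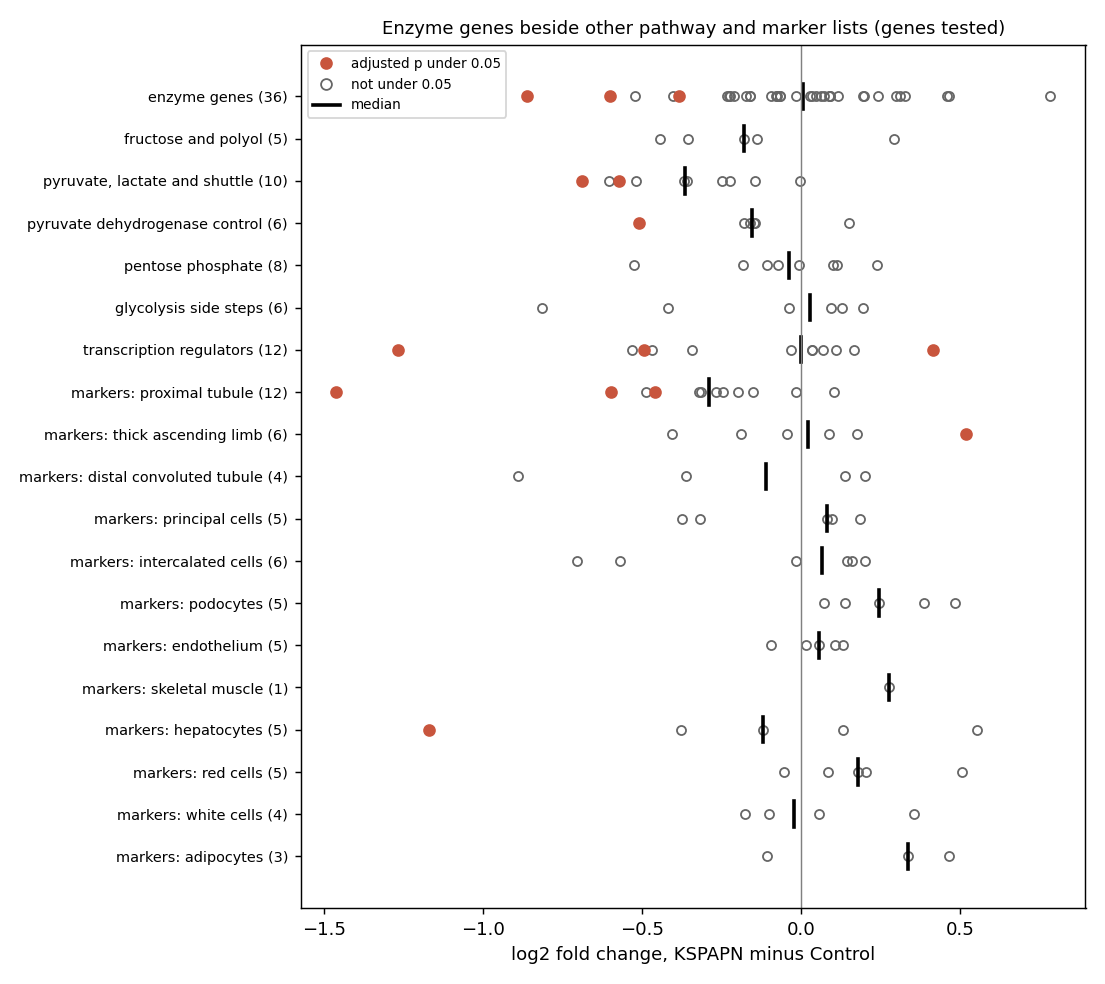
Log2 fold changes, KSPAPN over Control, of the genes tested among the enzymes, each pathway list and each marker list, with a point per gene and a bar at the list median. All 10 genes of the pyruvate, lactate and shuttle list lie below 0 (9 of 10 by total counts or with the GC and length trend removed).

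Other genes of these pathways were also chosen with earlier results of these data known. Of these 50 genes 47 were tested, and 3 were not (Ldhc, Eno4 and Pgk2). By edgeR 1 was higher (2.13%) and 5 were lower (10.6%), beside 0.393% and 2.25% of all genes, with 14 above 0 and 33 below (28 by total counts, 31 with the GC and length trend removed) and a median of -0.15 (-0.08 by total counts). DESeq2 called 1 higher and 14 lower, beside 1.29% and 5.31% of all genes with an adjusted p there, and limma 0. The 5 lower were 1 without Control library 1, 3 without Control library 2, 9 without KSPAPN library 1, 3 without KSPAPN library 2 and 1 without KSPAPN library 3. The 1 higher was called without KSPAPN library 1 and in none of the 5 fits without another library. All 10 genes of the pyruvate, lactate and shuttle list were below 0 (9 by total counts or with the GC and length trend removed), with a median of -0.36 (-0.23 with that trend removed), beside 7710 below 0 of the 16017 genes tested. For 9 of them KSPAPN lay wholly below Control, beside 13.5% of all genes. Without Control library 3 or KSPAPN library 1, 9 of the 10 were below 0. By edgeR 2 of the 10 were called lower (20%, beside 2.25% of all genes), and 0 without Control library 1 or KSPAPN library 3. The count was 5 by DESeq2, 6 with no filter on low counts, 4 with library number as a block and 0 by limma. Of all genes, 5.31% were lower by DESeq2, 1038 of 29418 with no filter and 705 of 16017 with the block. Mpc2, a subunit of the mitochondrial pyruvate carrier, was at 40.4, 33.3 and 36.2 FPKM in Control and at 24.3, 21.7 and 21.9 FPKM in KSPAPN. It fell by 0.69 on the log2 scale (SE 0.102, edgeR adjusted p 0.0113), with an adjusted p of 0.0665 without Control library 1 and 0.0651 without KSPAPN library 3. Gpt2 fell by 0.57 (adjusted p 0.0293), with adjusted p of 0.154 and 0.0740 without Control libraries 1 and 2 and 0.0713 and 0.123 without KSPAPN libraries 2 and 3, and 0.0783 by total counts. Mdh1, the most abundant of the 10, had a log2 fold change of -0.25 (adjusted p 0.231).

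Pdk2, the most abundant of 6 genes of pyruvate dehydrogenase control, was at 85.4, 73.6 and 76.3 FPKM in Control and at 55.5, 54.5 and 54.5 FPKM in KSPAPN. It fell by 0.51 on the log2 scale (edgeR adjusted p 0.0210), with an adjusted p of 0.110 without Control library 1, 0.0610 without KSPAPN library 2 and 0.103 without KSPAPN library 3, and of 0.0563 by total counts. The other 5 of that list were not called, and its median was -0.16, or -0.09 by total counts, -0.08 without Control library 2 and -0.10 without KSPAPN library 1. Among 5 fructose and polyol genes, 8 pentose phosphate genes and 6 tested of 9 side-step genes, 0 passed the adjusted edgeR threshold. With library number as a block, edgeR called Sord, Pgls, Pgam2 and Pgp lower, and Glyctk as well with no filter on low counts. Of all genes, 705 of 16017 were lower with the block and 1038 of 29418 with no filter. With the block and the GC and length trend removed, it called Pgls and Pgp lower and Slc2a5 higher, beside 501 lower and 194 higher of all 16004 genes. Without KSPAPN library 1, it called Pgls, Pgam2 and Pgp lower, beside 571 of all 16433 genes. At an unadjusted p under 0.05, 2 fructose and polyol genes, 1 pentose phosphate gene and 2 side-step genes were lower, and 1 pentose phosphate gene was higher. Of all genes 11.2% were lower and 7.52% higher at that p. The fructose and polyol median was -0.18, or -0.11 by total counts. The pentose phosphate median was -0.04, from -0.11 without KSPAPN library 1 to 0.08 with the GC and length trend removed. The side-step median was 0.03, from -0.01 without Control library 1 to 0.10 by total counts. DESeq2 called 1, 1 and 2 genes of these lists lower and 0 higher, beside 5.31% and 1.29% of all genes, and limma 0. The most abundant genes of the lists were Sord (log2 fold change -0.44, adjusted p 0.0803), Taldo1 (-0.11, adjusted p 0.572) and Pgam2 (-0.42, adjusted p 0.0508).

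Of 12 transcription regulators of these enzymes 1 was higher (8.33%) and 2 were lower (16.7%) by edgeR, beside 0.393% and 2.25% of all genes, and 6 were above 0 (7 by total counts, 4 with the GC and length trend removed). Hif1a was at 13.4, 15.8 and 15.1 FPKM in Control and at 18.6, 20.5 and 19.6 FPKM in KSPAPN, and it rose by 0.41 on the log2 scale (SE 0.0923, adjusted p 0.0451). Its adjusted p was 0.206, 0.0822 and 0.114 without Control libraries 1, 2 and 3, and 0.124 and 0.161 without KSPAPN libraries 2 and 3, and it was 0.0613 with the GC and length trend removed. Cebpa was at 19.7, 15.9 and 14.8 FPKM in Control and at 5.91, 8.65 and 6.35 FPKM in KSPAPN, and it fell by 1.27 (SE 0.159, adjusted p 0.00613). Klf15 fell by 0.49 (adjusted p 0.0425), with adjusted p of 0.182, 0.0936 and 0.128 without Control libraries 1, 2 and 3, and 0.0559 and 0.189 without KSPAPN libraries 1 and 3, 0.0741 by total counts and 0.103 with that trend removed. Hnf4a, the most abundant, had a log2 fold change of 0.03 (adjusted p 0.905).

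**Figure D5:**
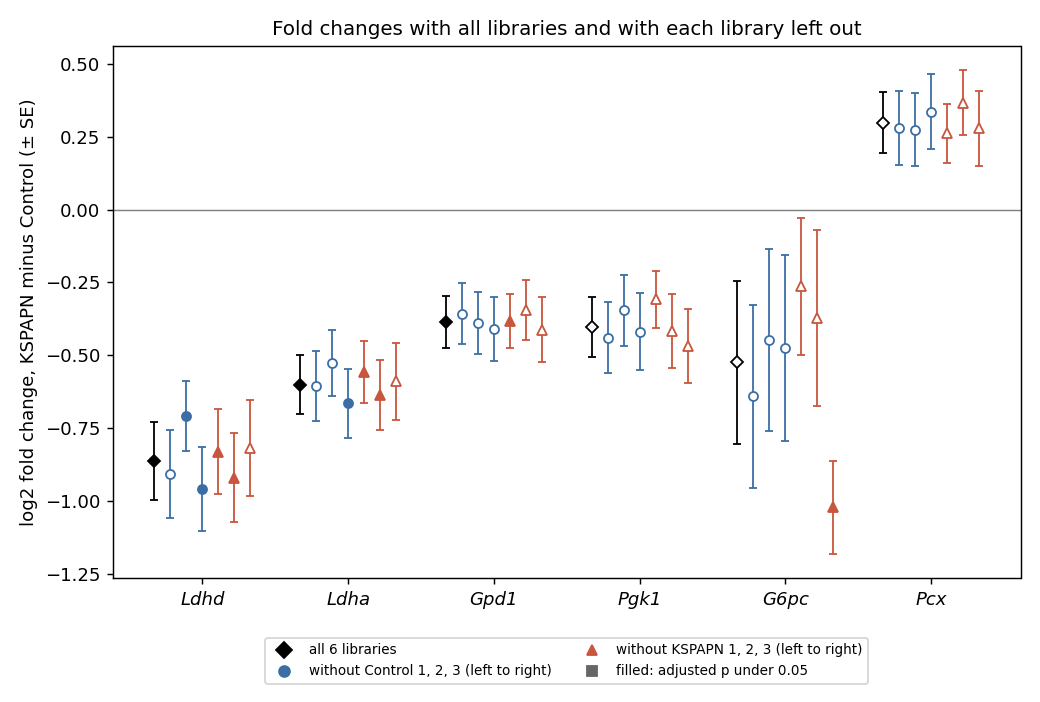
Log2 fold change of enzymes in the fit of all 6 libraries and in each of the 6 fits that leave out a library, with SE bars. Ldhd ranges from -0.96 to -0.71, Ldha from -0.66 to -0.53 and Gpd1 from -0.41 to -0.34.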

How the data were processed

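RNA from whole kidneys was sequenced after oligo(dT) selection on a NovaSeq instrument, although the extraction text of the labels speaks of liver. The authors deposited raw gene counts and FPKM (fragments per kilobase of transcript, scaled to depth) for 6 libraries. The submitters' processing notes name STAR 2.5, TopHat, HTSeq 0.6.1, DESeq2 and edgeR, while the genome build and strandedness they used were not given in the sources used here. Ensembl identifiers were given symbols with GENCODE M21 (GRCm38), where 54495 of 54532 genes matched and 37 did not. Depth ran from 17183358 to 20871173 counts per library.

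Counts were tested with edgeR 4.0.16 (quasi-likelihood, TMM scaling, group as the term, two-sided) in R 4.3.3 after a filter of 10 counts in enough libraries and 15 in all, and p was adjusted by Benjamini-Hochberg over 16017 genes at a threshold of 0.05. Intervals at 95% came from the fit, and levels are FPKM as deposited. The alternatives were DESeq2 1.42.0, limma 3.58.1 on log2 FPKM with 1 or 0.1 added, other scalings, no filter on low counts, removal of a trend on GC content and length, a block for library number, and leaving out each library. The code was tested on simulated data. Promoters came from RefSeq, and Python 3.11.15 with pandas 2.3.3 and matplotlib 3.10.9 was used for sequences and figures.

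The enzymes and the pathway and marker lists were chosen with earlier results of these data known. Described in full were enzymes past the adjusted threshold, then those with an unadjusted p under 0.05, then the most abundant of each role. Of the other lists, genes past the adjusted threshold and the most abundant gene of each were named. No library was left out of the reported fit, and no test of a list as a whole was made. Some genes listed at the start are not reported.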

Additional observations from a re-analysis of the deposited data

How the results depend on the processing

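The fold changes of Ldhd, Ldha and Gpd1 were below 0 under all 10 alternatives that kept every library and in all 6 fits that left out a library. They were past the adjusted threshold in 8, 8 and 4 of the 10 alternatives, and in 4, 3 and 1 of the 6 fits. Ldhd ranged from -0.86 to -0.79 over the alternatives and from -0.96 to -0.71 in the fits that left out a library, with an adjusted p up to 0.0839. Ldha ranged from -0.60 to -0.46 and from -0.66 to -0.53 (adjusted p up to 0.0972), and Gpd1 from -0.39 to -0.26 and from -0.41 to -0.34 (adjusted p up to 0.213). Of the 36 enzymes, 19 kept the sign of their fold change in all 16 settings.

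Over all genes, 63 were higher and 361 lower. DESeq2 gave 181 and 744, no filter on low counts 301 and 1038, limma 2 and 6 with 1 added and 3 and 9 with 0.1 added, total counts 195 lower, and removal of the GC and length trend 100 higher. In the fits that left out a library, 5 to 162 were higher and 34 to 571 lower. With library number as a block, 224 genes were higher and 705 lower, and with the block and the trend removed 194 were higher.

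Among the enzymes, 0 were higher and 3 lower. With no filter 1 was higher (Aldoc) and 5 lower (G6pc and Pgk1 added), limma gave 0 lower with either addition, and removal of the trend gave 1 higher (Pfkm), or 3 higher with the block as well (Pfkm, Pcx and Aldoc). Leaving out a library gave 0 to 3 lower. Of the other pathway genes, 1 was higher and 5 lower. DESeq2 gave 14 lower, no filter 17, total counts 2, the block 13, and the block with the trend removed 8. Limma gave 0 in either direction with either addition, removal of the trend gave 0 higher, and leaving out a library gave 0 to 1 higher and 1 to 9 lower. The causes were not tested.

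The median of the proximal glucose-producing isoforms was 0.083 with the trend removed and 0.10 with the block as well, and that of the distal glycolytic isoforms 0.24 in both. From FPKM, the share of Ldhb of Ldha and Ldhb differed by 6.06 points, KSPAPN minus Control. That of Gpd1 of Gpd1 and Gpd2 differed by -3.35 points. From CPM (counts scaled to depth) these differences between the groups were 9.01 and -5.77 points.

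Fold changes with the other sign than reported were as follows, and none of them was past the test. By total counts they were Fbp1 0.0052, Pfkfb3 0.0045 and Slc37a4 0.052. With the trend removed they were Aldoa 0.11, Eno1 0.088, Fbp1 0.099, G6pc3 0.039, Khk 0.013, Pfkp -0.0018, Slc37a4 0.12 and Tpi1 0.0041. With the block as well they were Aldoa 0.11, Eno1 0.083, Fbp1 0.096, G6pc3 0.038, Khk 0.019, Slc37a4 0.12 and Tpi1 0.0036. Leaving out a library, the range was -0.037 to 0.25 for Gpd2, -0.096 to 0.37 for Pck2, -0.038 to 0.31 for Pfkp, -0.13 to 0.21 for Fbp2, -0.039 to 0.13 for Hk1, -0.11 to 0.0043 for Pfkfb3 and -0.016 to 0.25 for Eno3. It was -0.32 to 0.78 for Hk3, -0.083 to 0.027 for Slc37a4, -0.018 to 0.31 for Pfkl, -0.13 to 0.025 for Eno1, -0.14 to 0.012 for Fbp1 and -0.0019 to 0.095 for Ldhb.

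The pairing of library numbers across groups was checked. The correlation of libraries of the same number, after group means were removed, was 0.0537, 0.154 and 0.173. Each library correlated best with the library of its own number in the other group. Removing group means leaves some best match above 0 in any case, so these values cannot show a pairing. Whether libraries were paired was not tested. The labels give no pairing, and the numbers were not used as pairs in the reported fit. With the block, the adjusted p was 0.00813 for Ldhd, 0.0109 for Ldha and 0.0322 for Gpd1, and Pgk1 was called lower as well (0.0357).

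Each group had 3 libraries, each a pool of 3 mice, so differences between single mice are not seen. Libraries of a group differed beyond counting noise, by a chi-square per degree of freedom of 10.1 to 32.3, the highest in the pairs with KSPAPN library 1 (32.3 and 24.1). Counts were few for Hk2, Hk3 and Pfkfb1, so changes in them would have to be large to be seen at this depth. RNA levels say nothing of enzyme activity.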
